A study of Caenorhabditis elegans with 4 samples.

Results

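*dyf-5* and *dyf-18* are genes for protein kinases that set the length of sensory cilia in *C. elegans*. They are 2 of 9725 genes measured above a low signal limit in embryos, with 1 probe set for each gene on the array for *dyf-5* (sequence name M04C9.5) and 1 for *dyf-18* (sequence name H01G02.2). Both were chosen by their difference between the groups, so every value of that difference is given for them as a description, with no test. On both arrays labelled *daf-19(-)* each kinase gave a stronger signal than on either array labelled *daf-19(+)*.

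Expression was profiled with 4 Affymetrix GeneChips of the worm genome. Of these, 2 carry the label *daf-19(-)*, for double mutants, *daf-19(m86);daf-12(sa204)*, while 2 carry the label *daf-19(+)*, for *daf-12(sa204)* animals, and each group has replicates 1 and 2. All animals carried *daf-12(sa204)*, which lifts the constitutive dauer arrest of *daf-19(m86)*, so the reference strain is a mutant too. The embryos were eggs freed from gravid adults with hypochlorite, frozen, thawed and broken open as whole animals, and 5 micrograms of total RNA went into each labelling. The study describes the replicate numbers as separate array experiments. No source used here states the embryos' age or whether the experiments started from separate cultures, so the spread between arrays may be technical. The naming of the arrays is contradictory. In the 1998 rows compared, the study's own table of array results calls the 2 chips of the *daf-19(-)* label *daf-12* and the 2 chips of the *daf-19(+)* label *daf-19;daf-12*, with equal signals in 1998 of 1998 rows for every column. The study states from earlier work that DAF-19, the product of *daf-19*, regulates *che-2*, *osm-1* and *osm-6*. It lists *osm-6*, *xbx-1*, *che-2* and *dyf-5* as lower without DAF-19. Here all of these genes gave higher signals under the *daf-19(-)* label. The naming in the study's own table therefore goes with its account of DAF-19, and the deposited labels run against that account. Which label belongs to which RNA was not tested. All values go by the deposited labels, *daf-19(-)* over or minus *daf-19(+)*, a direction opposite to the one the study gives, and under the other naming every sign turns round.

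DAF-19 is an RFX transcription factor that binds X-box motifs in the promoters of ciliary genes. In *C. elegans* only sensory neurons bear cilia, and their cilia are built and maintained by intraflagellar transport (IFT), in which kinesin-2 motors carry IFT complexes A and B towards the tip and IFT dynein returns them. DYF-5 belongs to the MAK/ICK family of serine/threonine kinases, and DYF-18 is a relative of the vertebrate kinase CCRK, which activates that family. Worms that lack *dyf-5* have cilia that are too long, and mutants of this *dyf* class fail to take up a fluorescent dye through their exposed sensory cilia.

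The motif through which DAF-19 acts is shown here for IFT genes measured on the same arrays, since the kinases are compared with these genes. The sites come from the set of known X-boxes that the study used to build its motif profile (15 motifs of 13 genes), which includes neither kinase gene. The 6 sites shown are 14 bases long and not all of those known for IFT genes, and capitals mark the 7 positions at which all 6 have the same base.
*che-2*, chromosome X: GtTgtcATgGtgAC
*osm-1*, chromosome X: GcTaccATgGcaAC
*osm-5* (one site), chromosome X: GgTgccATgGcaAC
*osm-5* (another site), chromosome X: GtTactATgGcaAC
*osm-6*, chromosome V: GtTaccATaGtaAC
*xbx-1*, chromosome V: GtTtccATgGtaAC
The promoters of the kinases themselves were not scanned for this motif.

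The signals are linear GCOS values, scaled by the authors so that the trimmed mean of each chip is 500. *dyf-5* gave signals of 134.8 and 215.5 on the *daf-19(-)* arrays, against 15.4 and 50.2 on the *daf-19(+)* arrays. The groups did not overlap, and the lower *daf-19(-)* signal was 2.69 times the higher *daf-19(+)* signal. The mean signal was 175 ± 57.1 (SD, n = 2) for the *daf-19(-)* label and 32.8 ± 24.6 (SD, n = 2) for the *daf-19(+)* label, a ratio of 5.34. Within replicate 1 the ratio was 8.75 and within replicate 2 it was 4.29. Both *daf-19(+)* signals lay below 80, the limit used here for a dim signal, so *dyf-5* entered the fit over all probe sets only through its *daf-19(-)* arrays. With every signal under 80 set to 80 its ratio was 2.19, an alternative chosen after seeing the data.

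*dyf-18* gave signals of 274.1 and 304.0 on the *daf-19(-)* arrays, against 47.7 and 81.6 on the *daf-19(+)* arrays. Again the groups did not overlap, with a gap of 3.36 times between the lower *daf-19(-)* and the higher *daf-19(+)* signal. The mean signal was 289 ± 21.1 (SD, n = 2) for the *daf-19(-)* label and 64.7 ± 24.0 (SD, n = 2) for the *daf-19(+)* label, a ratio of 4.47. The ratio was 5.75 within replicate 1 and 3.73 within replicate 2. With signals under 80 set to 80 the ratio of *dyf-18* was 3.58. Signals of different probe sets are not comparable in level, so nothing can be said of which kinase is the more abundant.

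**Figure D1:**
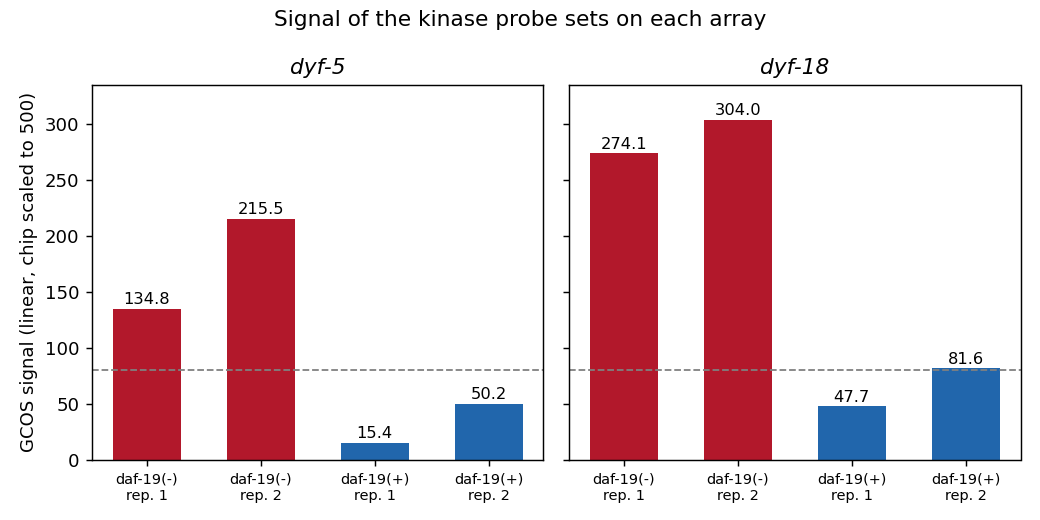
Signal of the *dyf-5* and *dyf-18* probe sets (linear GCOS signal, each chip scaled to 500) on the 2 *daf-19(-)* arrays in red and the 2 *daf-19(+)* arrays in blue, 1 bar for each array; the dashed line is the limit of 80. For both genes each *daf-19(-)* bar is above each *daf-19(+)* bar, and the *daf-19(+)* bar of replicate 1 is the lowest, at 15.4 for *dyf-5* and 47.7 for *dyf-18*.

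The replicates differed most among the *daf-19(+)* arrays. For *dyf-5* the signal of replicate 2 was 1.60 times that of replicate 1 in *daf-19(-)* and 3.26 times in *daf-19(+)*. In *daf-19(+)* the median probe set changed 1.06 times, and 1.10% of all 13096 tested probe sets rose as much as *dyf-5* or more. Falls of that size were not counted. For *dyf-18* the signal of replicate 2 was 1.11 times that of replicate 1 in *daf-19(-)* and 1.71 times in *daf-19(+)*. In *daf-19(+)* 9.50% of tested probe sets rose at least as much, falls again not counted. The size of the *dyf-5* ratio therefore rests on single arrays. Without *daf-19(+)* replicate 2 it was 11.4, and without *daf-19(+)* replicate 1 it was 3.49. For *dyf-18* the ratio stayed between 3.54 and 6.06 when each array was left out in turn.

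The *daf-19(+)* arrays were also dimmer at large. The median signal over all probe sets was 136.2 and 144.5 on the *daf-19(-)* arrays and 106.0 and 126.9 on the *daf-19(+)* arrays, the lowest being *daf-19(+)* replicate 1, in which both kinases were lowest as well. With the 4 arrays brought to a common distribution by quantile normalization, the ratio was 4.69 for *dyf-5* and 3.93 for *dyf-18*. In whole embryos, fewer cells of a type and less RNA per cell cannot be told apart.

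On the scale of log2(signal + 16) the difference between the groups was 2.03 for *dyf-5* (2.26 in replicate 1, 1.81 in replicate 2) and 1.95 for *dyf-18* (2.19 in replicate 1, 1.71 in replicate 2). The SD between replicates on this scale was 0.44 in *daf-19(-)* and 0.76 in *daf-19(+)* for *dyf-5*, and 0.10 in *daf-19(-)* and 0.44 in *daf-19(+)* for *dyf-18*. Among the 13096 tested probe sets, *dyf-5* ranked 41 and *dyf-18* ranked 53 by the ratio of summed signals. In replicate 1 alone they ranked 70 and 100, and in replicate 2 alone 82 and 99, *dyf-5* being the first in each pair. As background, 410 tested probe sets (3.13%) had a ratio of 2 or more, and 3892 (29.7%) had both *daf-19(-)* signals above both *daf-19(+)* signals. Both kinases meet both criteria, from which nothing is read, since the same difference chose them. By the deposited labels 128 probe sets (0.977%) ran opposite to the kinases, at a ratio of 0.5 or less. For 2823 (21.6%) both *daf-19(-)* signals lay below both *daf-19(+)* signals. With the naming turned, the kinases hold the same ranks counted from the lowest ratio. Their background is then the same 410 and 3892 probe sets, now as lower.

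The *daf-19* gene itself, whose *m86* allele the *daf-19(-)* strain carries, was measured by 2 probe sets. One gave signals of 2493.4 and 2365.2 on the *daf-19(-)* arrays, against 767.5 and 856.8 on the *daf-19(+)* arrays, and limma (moderated test over all tested probe sets, Benjamini-Hochberg adjusted) gave a log2 fold change of 1.56 ± 0.19 (SE) with an adjusted p of 0.00166. The other gave 1.54 ± 0.22 (SE) with an adjusted p of 0.00513. Where these probe sets lie in relation to the *m86* change is not given in the sources used here, so they do not check the labels.

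The kinases were next set beside others of their kind. Of 27 tested kinases of the CMGC group (29 listed), the group of cyclin-dependent, MAP, GSK3 and CDC-like kinases to which DYF-5 and DYF-18 belong, 0 passed limma's test in either direction, where 47 of all tested probe sets (0.359%) passed as higher and 11 (0.084%) as lower. At an unadjusted p under 0.05 limma gave 2 higher and 1 lower kinases. With the replicate number as a block 2 kinases passed as higher and 0 as lower, against 572 (4.37%) and 394 (3.01%) of all tested probe sets. These shares are the background for the counts in every list below as well. The median log2 fold change of the group was 0.02, beside 0.06 over all tested genes. Of the 27 kinases 25 had a ratio within 2-fold, between 0.725 and 1.91, and the 2 others were *cdkl-1* and *mapk-15*.

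*cdkl-1* encodes a cyclin-dependent kinase-like protein of the ciliary base. Its signals were 156.9 and 120.9 on the *daf-19(-)* arrays, against 36.4 and 18.7 on the *daf-19(+)* arrays, with no overlap. The mean signal was 138.9 ± 25.5 (SD, n = 2) in *daf-19(-)* and 27.6 ± 12.5 (SD, n = 2) in *daf-19(+)*, a ratio of 5.04, or 1.74 with signals under 80 set to 80. The log2 fold change was 1.85 ± 0.48 (SE) with limma's adjusted p at 0.107, and at 0.00988 with the replicate block. Both *daf-19(+)* signals of *cdkl-1* were below 80, so it was tested only through its *daf-19(-)* arrays. Its *daf-19(+)* signal was higher in replicate 1 than in replicate 2, the reverse of both *dyf* kinases.

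*mapk-15*, the worm relative of the MAP kinase ERK7/8, gave 421.0 and 552.5 on the *daf-19(-)* arrays, against 193.0 and 197.9 on the *daf-19(+)* arrays. The ratio was 2.49 and the log2 fold change 1.24 ± 0.27 (SE), with limma's adjusted p at 0.0680, and at 0.00109 with the replicate block. All 4 of its signals were above 80. The *daf-19(+)* replicates of *mapk-15* lay close together, unlike those of *dyf-5*.

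Next in size among this group were *mpk-2*, *gsk-3* and *jnk-1*, and *cdk-1* had the most negative value. *mpk-2*, a MAP kinase gene, gave 125.0 and 101.5 on the *daf-19(-)* arrays, against 50.1 and 68.6 on the *daf-19(+)* arrays (log2 fold change 0.78, adjusted p 0.338). Like *cdkl-1*, it was tested only through its *daf-19(-)* arrays. *gsk-3*, the glycogen synthase kinase 3 gene, gave 153.6 and 149.6 on the *daf-19(-)* arrays, against 155.8 and 49.2 on the *daf-19(+)* arrays, so that its log2 fold change of 0.66 (adjusted p 0.438) came from 1 array and was -0.036 without *daf-19(+)* replicate 2. *jnk-1*, a Jun N-terminal kinase gene, differed by 0.47 on the log2 scale (adjusted p 0.274). *cdk-1*, the mitotic cyclin-dependent kinase gene, gave 2754.6 and 2480.2 on the *daf-19(-)* arrays, against 4269.9 and 2953.0 on the *daf-19(+)* arrays (log2 fold change -0.44, adjusted p 0.267). None of the 4 passed in either fit.

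**Figure D2:**
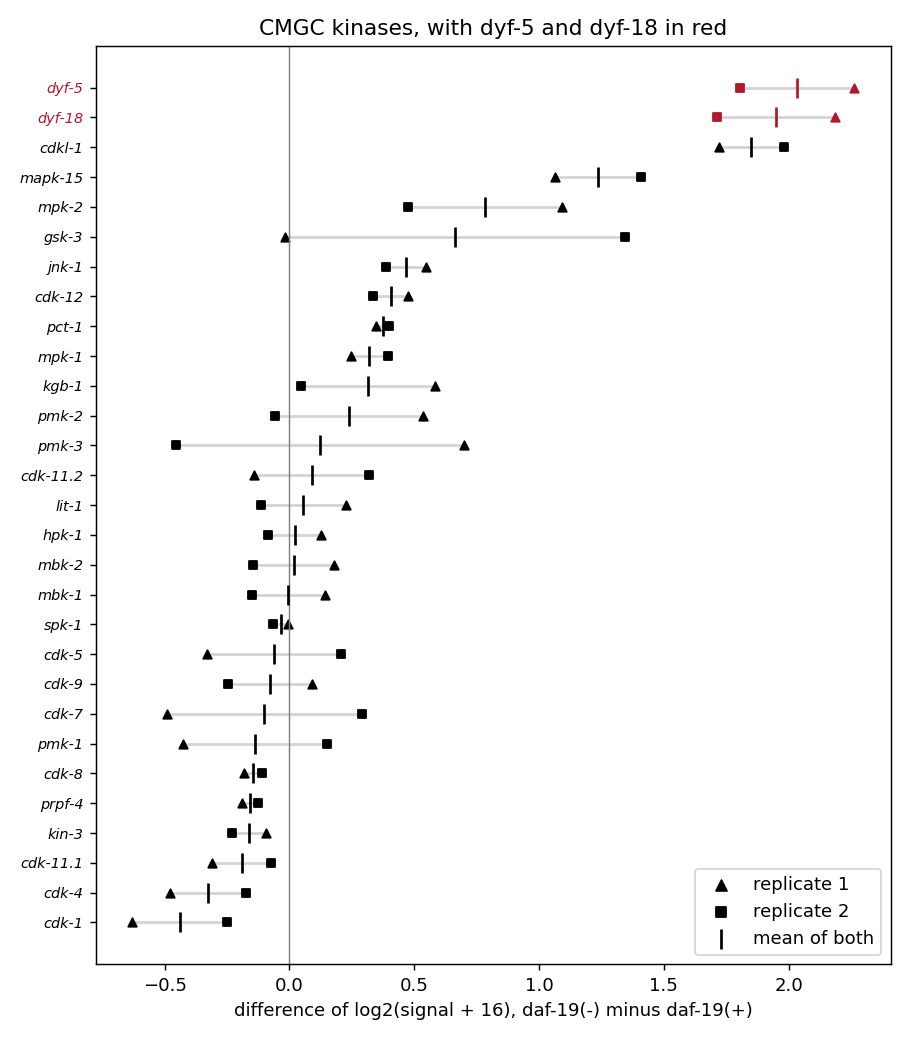
Difference of log2(signal + 16), *daf-19(-)* minus *daf-19(+)*, for *dyf-5* and *dyf-18* (red) and the 27 other tested CMGC kinases (black), with replicate 1 as a triangle, replicate 2 as a square and their mean as a tick. *dyf-5*, *dyf-18*, *cdkl-1* and *mapk-15* lie above 1 in both replicates, and 25 kinases have means between -0.44 and 0.78.

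Among other genes for kinases or kinase subunits that were listed here for a role in cilia, 7 of 9 were tested and 0 passed. With the replicate block 2 passed, which were again *cdkl-1* and *mapk-15*. At an unadjusted p under 0.05 limma gave 4 as higher and 0 as lower. The median log2 fold change was 0.75. *nekl-2*, a NIMA-related kinase gene, gave 319.6 and 288.9 on the *daf-19(-)* arrays, against 183.5 and 141.9 on the *daf-19(+)* arrays, and the adjusted p of its log2 fold change of 0.85 was 0.179. *nekl-3*, of the same family, gave 452.4 and 505.6 on the *daf-19(-)* arrays, against 217.3 and 354.7 on the *daf-19(+)* arrays (log2 fold change 0.75, adjusted p 0.197). *nekl-1* was too dim to be tested.

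The motors of IFT, whose localization depends on DYF-5 in worms, were compared next. Of the subunit genes of heterotrimeric kinesin-II 0 of 3 passed limma's test in either fit, with 2 higher and 0 lower at an unadjusted p under 0.05 and a median log2 fold change of 0.47. The motor subunit gene *klp-11* gave 1418.5 and 1584.8 on the *daf-19(-)* arrays, against 1089.3 and 907.0 on the *daf-19(+)* arrays (log2 fold change 0.59, adjusted p 0.179). The other motor subunit gene, *klp-20*, had a log2 fold change of 0.46, and *kap-1*, the gene for the associated subunit, one of 0.47. *osm-3*, the gene for the homodimeric kinesin-2 of the distal cilium, was too dim to be tested, at 33.7 and 65.5 on the *daf-19(-)* arrays and 69.2 and 25.7 on the *daf-19(+)* arrays.

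Of the 6 genes of the IFT dynein list 2 rose and 0 fell (3 rose with the replicate block), with a median log2 fold change of 1.21. The 3 genes had both *daf-19(+)* signals below 80 and were tested only through their *daf-19(-)* arrays. *che-3*, the heavy chain gene, gave 392.5 and 459.3 on the *daf-19(-)* arrays, against 9.4 and 69.1 on the *daf-19(+)* arrays (log2 fold change 3.24 ± 0.48 SE, limma adjusted p 0.00723). *xbx-1*, the light intermediate chain gene, gave 129.1 and 170.8 on the *daf-19(-)* arrays, against 4.6 and 8.6 on the *daf-19(+)* arrays (log2 fold change 2.87 ± 0.54 SE, adjusted p 0.0303). Like *dyf-5*, *che-3* had its lowest signal on *daf-19(+)* replicate 1. With each array left out in turn the log2 fold change of *che-3* ran between 2.37 and 4.12, the ends being the fits without a *daf-19(+)* array. *dylt-2*, a light chain gene, had a log2 fold change of 2.69 with an adjusted p of 0.0590, and between 1.98 and 3.41 with each array left out. The light chain genes *dyrb-1*, *dylt-1* and *dlc-1*, which cytoplasmic dynein also uses, ran the other way, at -0.57, -0.50 and -0.27, and none of them passed.

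In IFT complex B, the tip-directed transport complex, 5 of 12 tested genes rose, 10 with the replicate block, and 0 fell, with a median log2 fold change of 2.27. The 5 were *osm-6* (3.33 ± 0.51 SE, adjusted p 0.00799), *ifta-2* (3.02 ± 0.56 SE, 0.0288), *che-13* (2.95 ± 0.52 SE, 0.0223), *osm-5* (2.44 ± 0.40 SE, 0.0107) and *dyf-3* (2.09 ± 0.42 SE, 0.0494). Of all tested probe sets 0.359% passed as higher and 0.084% as lower, or 4.37% and 3.01% with the replicate block. The count of 0 that fell is near those shares, and nothing is read from it. The signals of *osm-6* were 248.0 and 170.0 on the *daf-19(-)* arrays, against 7.5 and 4.8 on the *daf-19(+)* arrays, and with signals under 80 set to 80 its ratio was 2.61. Set in the same way, the ratio was 3.56 for *osm-5* and 2.83 for *dyf-3*, beside 2.19 for *dyf-5*. The log2 fold change of *ifta-2* ran between 2.08 and 3.95 with each array left out, the ends being the fits without a *daf-19(+)* array. For 10 of the 12 genes both *daf-19(+)* signals were below 80, as for *dyf-5*, so these genes were tested only through their *daf-19(-)* arrays. *dyf-11*, another complex B gene, ran the other way, with 65 and 80.1 on the *daf-19(-)* arrays against 100.6 and 136.8 on the *daf-19(+)* arrays (log2 fold change -0.60, adjusted p 0.443).

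IFT complex A, needed for the return to the base, had 1 gene of 5 that rose, 3 with the replicate block, and 0 that fell, with a median log2 fold change of 1.57. This was *ifta-1*, with 388.0 and 479.0 on the *daf-19(-)* arrays, against 81.6 and 121.4 on the *daf-19(+)* arrays (log2 fold change 1.95 ± 0.31 SE, adjusted p 0.0102). Its fold change is close to that of *dyf-18*, and the difference between them was not tested. *dyf-2* (1.89, adjusted p 0.110), *che-11* (1.57, 0.157) and *daf-10* (1.23, 0.184) had positive values and did not pass, and *che-11* ran between 0.75 and 2.40 with each array left out. *dyf-2* and *daf-10* had both *daf-19(+)* signals below 80 and were tested only through their *daf-19(-)* arrays. Of the 8 genes called in the IFT lists, *che-3* passed with each array left out, while *osm-6*, *che-13*, *osm-5* and *ifta-1* passed in 2 of 4 such fits and *xbx-1*, *ifta-2* and *dyf-3* in 1, without *daf-19(+)* replicate 2.

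Tubulins and their modifying enzymes, some of which form and mark the axoneme whose length the kinases limit, showed 0 of 15 calls by limma. At an unadjusted p under 0.05 limma gave 3 as higher and 0 as lower, and with the replicate block 1 passed (*atat-2*, an acetyltransferase gene). The median log2 fold change was 0.01, over a list not confined to ciliary genes. *tba-6*, an alpha-tubulin gene of ciliated neurons, gave 182.8 and 179.6 on the *daf-19(-)* arrays, against 73.0 and 130.9 on the *daf-19(+)* arrays (log2 fold change 0.79, adjusted p 0.277). *atat-2*, *tba-9* and *mec-12* had values of 0.73, 0.72 and 0.60, with adjusted p of 0.136, 0.191 and 0.193. The brightest genes of the list, *tba-1*, *tba-2*, *tbb-1* and *tbb-2*, had values of -0.17, -0.33, -0.20 and -0.22. *tba-5* was too dim to be tested. The differences of both *dyf* kinases exceeded every value in this list, from which nothing is read, since that difference chose them.

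Of the other genes named *dyf* for the dye-filling defect, 8 of 12 were tested. *dyf-3* rose, 5 passed with the replicate block, 0 fell, and the median log2 fold change was 1.45. *dyf-1*, *dyf-2*, *dyf-3*, *dyf-11* and *dyf-13* are already counted in the IFT complexes above. The call, and every call with the block except that of *dyf-7*, therefore repeat those lists. The genes not counted before were *dyf-19* (log2 fold change 1.17), *dyf-7* (0.69) and *dyf-4* (0.18). For 5 of the 8 genes both *daf-19(+)* signals were below 80, so these were tested only through their *daf-19(-)* arrays. Among them *dyf-1*, an IFT complex B gene, gave 195.2 and 209.0 on the *daf-19(-)* arrays, against 1.7 and 61.2 on the *daf-19(+)* arrays (log2 fold change 2.56, adjusted p 0.0824). *dyf-13*, another complex B gene, had a log2 fold change of 1.73 with an adjusted p of 0.201. Both rest on single *daf-19(+)* arrays, since *dyf-1* had 1.498 without replicate 1 and 3.62 without replicate 2 of that group, and *dyf-13* had 0.67 and 2.79 in the same fits.

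**Figure D3:**
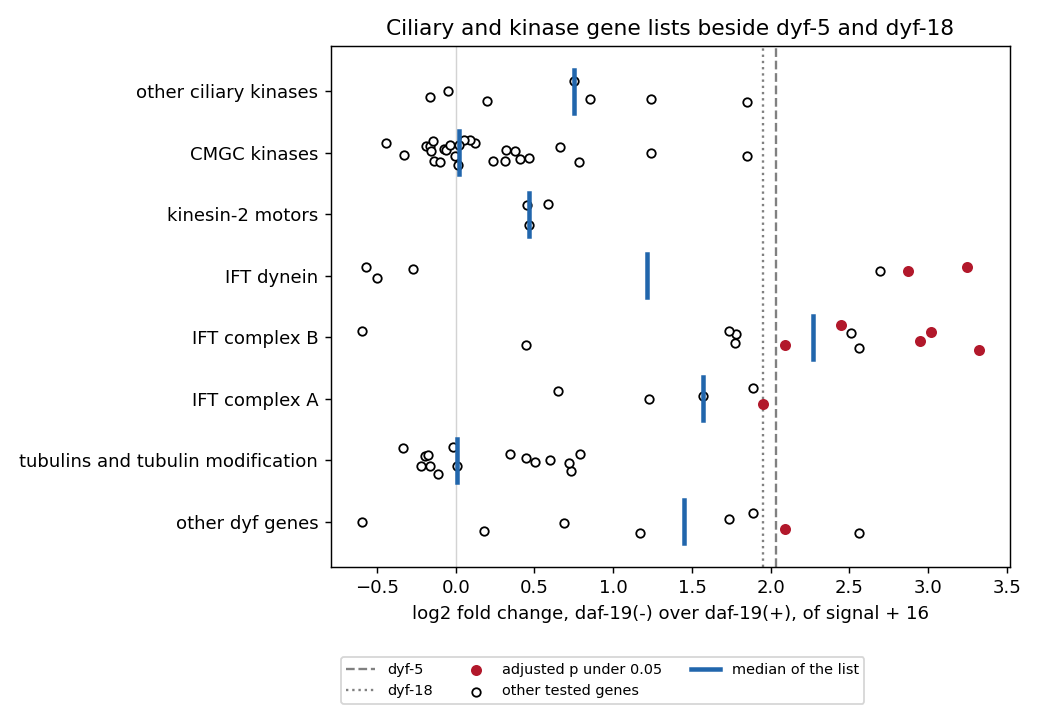
Log2 fold change, *daf-19(-)* over *daf-19(+)*, of each tested gene by list, filled red where limma's adjusted p is under 0.05, with the list's median as a blue bar and *dyf-5* and *dyf-18* as vertical lines at 2.03 and 1.95. The medians of IFT complex B (2.27) and complex A (1.57) lie on either side of the kinases, and those of the CMGC kinases (0.02) and tubulins (0.01) near 0. Points are spread vertically at random for legibility.

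The profiles of the kinases over the 4 arrays were close to each other. With each gene's log2(signal + 16) set relative to its own mean, the distance between the profiles of *dyf-5* and *dyf-18* was 0.476, which made *dyf-18* the 11th nearest of 9724 genes to *dyf-5*, and *dyf-5* the 16th nearest to *dyf-18*. The 5 genes nearest to *dyf-5* were C14C11.4 (distance 0.176), *dyf-3* (0.251), R102.2 (0.355), *bbs-1* (0.365) and *hlh-33* (0.393). *bbs-1* encodes a subunit of the BBSome, a cargo adaptor of IFT, and *hlh-33* a protein of the basic helix-loop-helix family. The signals of C14C11.4 were 82.0 and 138.9 on the *daf-19(-)* arrays, against 7.4 and 26.1 on the *daf-19(+)* arrays. Those of *bbs-1* were 192.1 and 208.8 on the *daf-19(-)* arrays, against 19.5 and 56.2 on the *daf-19(+)* arrays. In all of these the lower *daf-19(+)* signal was that of replicate 1.

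The 5 genes nearest to *dyf-18* were *ifta-1* (distance 0.138), F47G4.5 (0.245), *dyf-3* (0.264), R05D8.11 (0.293) and R102.2 (0.297), so that *dyf-3* and R102.2 stood in both lists. R102.2 gave 281.8 and 329.1 on the *daf-19(-)* arrays, against 36.3 and 79.3 on the *daf-19(+)* arrays. The ratios of these 5 genes ran between 3.33 (R05D8.11) and 7.68 (F47G4.5, whose ratio was 1.56 with signals under 80 set to 80). A likeness over 4 arrays that share the difference by which the kinases were chosen is a description only, and the names depend on the offset added before the logarithm, since with an offset of 64 in place of 16 the lists kept 2 of 5 genes for *dyf-5* and 3 of 5 for *dyf-18*.

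**Figure D4:**
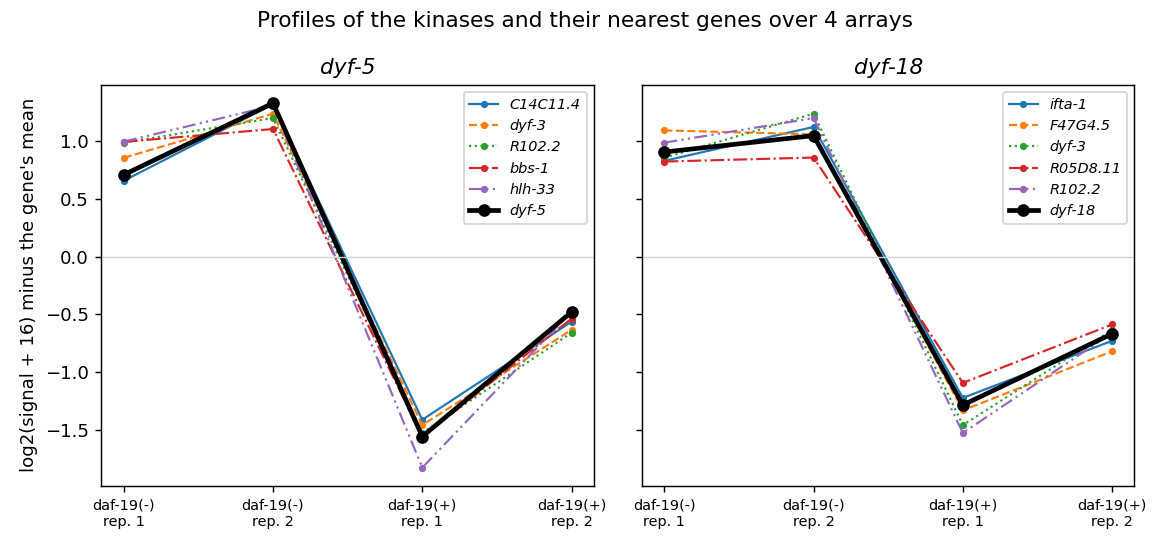
Log2(signal + 16) on each array minus the gene's mean over the 4 arrays, for *dyf-5* (left panel) and *dyf-18* (right panel) in black and the 5 genes with the nearest profile in colour. Lines join the arrays of a gene for legibility and do not mark an order. The profiles are high on both *daf-19(-)* arrays and lowest on *daf-19(+)* replicate 1.

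*dyf-5* lies on chromosome I and *dyf-18* on chromosome IV, by the RefSeq genes of the WBcel235 assembly, which was used for names and neighbours only. The annotated end of *ppfr-1*, a protein phosphatase 4 regulatory subunit gene, overlaps *dyf-5*, and 0 genes overlap *dyf-18*. The 4 probe sets of *ppfr-1* had ratios between 0.846 and 1.14, and none passed limma's test. The brightest gave 1114.4 and 1039.9 on the *daf-19(-)* arrays, against 1004.3 and 906.7 on the *daf-19(+)* arrays. The ratio of *dyf-5*, 5.34, lay outside the range of the gene that overlaps it, a description only, since *dyf-5* was chosen by its difference. M04C9.4, on the other side of *dyf-5*, was too dim to be tested, at 1.9 and 36.2 on the *daf-19(-)* arrays and 1.2 and 4.1 on the *daf-19(+)* arrays, as was H01G02.4 beside *dyf-18*, at 13.2 and 8.4 on the *daf-19(-)* arrays and 21.9 and 46.0 on the *daf-19(+)* arrays. H01G02.3, the other neighbour of *dyf-18*, has no probe set of its own that was used here.

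Markers of tissues and of embryonic age were read on the same arrays. Of 18 tested pan-neuronal genes 0 passed limma's test (2 with the replicate block, and 5 higher and 0 lower at an unadjusted p under 0.05) and the median log2 fold change was 0.49, with summed signals of 22982.6 and 21374.8 on the *daf-19(-)* arrays and 15780.8 and 19895.3 on the *daf-19(+)* arrays. The summed signal was lowest on *daf-19(+)* replicate 1 for muscle (14 genes, median 0.32), intestine (9 genes, median 0.43) and glia (6 genes, median 0.29) as well, and 0 genes of these lists passed. With the replicate block 2 muscle, 3 intestine and 1 glia genes passed as higher. At an unadjusted p under 0.05 limma gave 4 muscle, 5 intestine and 2 glia genes as higher and 0 as lower. Of 8 genes of early embryos and the germ line 0 passed (1 as lower with the replicate block, and 0 higher and 2 lower at an unadjusted p under 0.05) and the median was -0.27, with summed signals of 6439.1 and 6181.0 on the *daf-19(-)* arrays and 8754.2 and 6710.9 on the *daf-19(+)* arrays. The sums of the sperm list were 643.6 and 755.5 on the *daf-19(-)* arrays and 626.6 and 809.3 on the *daf-19(+)* arrays. *vit-6*, the 1 yolk gene tested, gave 58.0 and 94.9 on the *daf-19(-)* arrays, against 66.2 and 434.1 on the *daf-19(+)* arrays. Of the yolk probe sets not tested, that of *vit-5* gave 17.4 and 282.3 on the *daf-19(+)* arrays. Those of *vit-4* gave 31.4 and 210.2, 43.9 and 181.7, and 25.5 and 8.6 there. On the *daf-19(-)* arrays all of these lay below 80, as did *vit-1* and *vit-2* on every array. Whether embryonic age or the make-up of the samples has a part in the values of *dyf-5* and *dyf-18* was not tested.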

How the data were processed

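Total RNA of whole embryos was hybridised to 4 Affymetrix arrays. The authors processed the scans in GCOS, whose version is not given in the sources used here. Each chip was scaled to an all-probe-set target of 500, and the deposited signals are linear intensity values. Detection calls were not used. Of 22548 probe sets without controls, 20766 name 1 gene in the platform annotation, 887 name several and 895 are unlisted and unnamed here. Symbols were updated through RefSeq for 20701.

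Samples were grouped by their deposited labels. The 13096 probe sets that reached a signal of 80 on 2 or more arrays entered limma 3.58.1 in R 4.3.3 (lmFit, then eBayes with a trend) as log2(signal + 16). The test was two-sided, and p-values were adjusted by Benjamini-Hochberg over all of them, with a threshold of 0.05. At an unadjusted p under 0.05, 1470 probe sets were higher and 925 lower. Ratios are of summed signals, without the offset. A gene was represented by its brightest probe set, 9725 genes in all. The fit without the block was checked on simulated arrays with normal noise and no replicate effect. Changes were seeded there only in brighter probe sets, so the check covers neither dim probe sets, such as that of *dyf-5*, nor the blocked fit.

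The replicate numbers were taken as pairs because the study's own table computes a fold within each number. Differences between replicates 2 and 1 correlated at 0.12 between the groups over 13096 probe sets. In the blocked fit limma took every variance from the trend, and the p-values of that fit depend on it.

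The members and lists were chosen with earlier results of these data known. Genes named are all probe sets of *dyf-5* and *dyf-18*, of each list the called genes and the 4 that changed most in either direction, the 5 nearest profiles (Euclidean distance), the neighbouring genes, and *daf-19*. *dylt-1* and *dlc-1* are named besides as the rest of their list, and *jnk-1*, *cdk-1* and *dyf-11* were chosen after their values were seen. Alternatives were other offsets, filters and scalings, no variance trend, the block, averaged probe sets, each array left out and, added after seeing the data, low signals set to 80. A promoter scan for X-boxes was planned and not run, for want of promoter sequence here. With 2 arrays a group the number of arrays limits the precision.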

Additional observations from a re-analysis of the deposited data

How the results depend on the processing

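Both kinases stayed higher in *daf-19(-)* under every setting tried. Since their groups did not overlap, leaving out an array, changing the offset or setting low signals to 80 could not turn the sign. Nothing is read from the sign, since the same difference chose them. The log2 difference of *dyf-5* lay between 1.497 and 2.57 with each array left out and was 1.31 with an offset of 64 and 0.96 with signals under 80 set to 80; that of *dyf-18* lay between 1.64 and 2.26 with each array left out and was 1.47 with an offset of 64. With an offset of 64 the nearest genes shared 2 of 5 names for *dyf-5* and 3 of 5 for *dyf-18*, and with quantile normalization 3 of 5 for *dyf-18*.

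Counts of calls depended on the setting far more. Over all probe sets the 47 higher and 11 lower calls became 572 and 394 with the replicate block, 26 and 2 with no variance trend, and 11 and 2 with no filter; 31 were higher with quantile normalization and 20 lower with an offset of 64. Leaving out 1 array gave 14 to 971 higher and 4 to 614 lower calls, with the 971 and 614 in the fit without *daf-19(+)* replicate 2, where the lone *daf-19(+)* array is assumed to vary like the other group. At 2-fold or more the 410 higher and 128 lower probe sets became 232 and 219 with quantile normalization, so the share that was higher moved to 51.4%, against 76.2% on the deposited scale. They became 2867 and 1675 with no filter and 137 and 79 with a limit of 200, and with 1 array left out 398 to 1232 were higher, most without *daf-19(+)* replicate 2, and 106 to 327 lower. The cause of these shifts was not tested.

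With the replicate block the calls of higher genes were 2 for other ciliary kinases, 2 for CMGC kinases, 10 for IFT complex B, 3 for IFT complex A, 1 for tubulins and 5 for other *dyf* genes. Some genes stand in more than 1 list, so these counts overlap. With an offset of 1, quantile normalization or a limit of 200, IFT dynein had 1 call, IFT complex B 2 and other *dyf* genes 0. With no variance trend IFT dynein had 1, and IFT complex A and other *dyf* genes 0. With no filter IFT dynein and both complexes had 0, as did other *dyf* genes, which had 2 with an offset of 64 and 0 with probe sets averaged. Leaving out 1 array gave 0 to 3 calls for other ciliary kinases, 0 to 2 higher and 0 to 1 lower for CMGC kinases, 0 to 1 for kinesin-2, 1 to 3 higher and 0 to 1 lower for IFT dynein, 0 to 9 for complex B, 0 to 3 for complex A, 0 to 2 for tubulins and 0 to 5 for other *dyf* genes. The log2 fold change of *gsk-3* lay between -0.036 and 1.36 with each array left out, the negative value being without *daf-19(+)* replicate 2. Counted over pairs of a named gene and a setting, the other log2 fold changes kept their direction and side of the threshold in 254 pairs. A call was gained in 31 pairs and lost in 38. Each gene recurs under several settings, so these are not counts of genes. The replicate block leaves every fold change as it is in this balanced design and alters only the p-values.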
